A study of Mus musculus with 6 samples.

Results

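Rab GTPases are small proteins that switch between a GTP-bound and a GDP-bound state and direct membrane traffic. Exchange factors load a Rab with GTP, effectors that bind the loaded form tether, carry or fuse vesicles, and GTPase-activating proteins switch it off again. Different family members mark different compartments, and in neurons the Rab3 proteins sit on synaptic vesicles, where they act in the regulated release of transmitter. Rab27 proteins serve the release of dense granules, melanosomes and other secretory organelles. The members were all probe sets of the expression array that the platform annotation assigns to a single symbol beginning with Rab and a number, leaving out symbols that go on with fip, gap, if or ip, which name interacting and GTPase-activating proteins. This gave 141 of 45037 probe sets, for 62 of 18193 named genes. Of these genes, 3 do not encode Rab GTPases: Rab3il1, an exchange factor, and the opposite-strand transcripts Rab10os and Rab26os. They are given separately, and the counts below are over the remaining 59 genes with 132 probe sets.

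The arrays measured ribosome-bound RNA from the cortex of S100a10 bacTRAP mice (line ES691), which were backcrossed from FVB for 3 to 5 generations on C57BL/6. In these mice the S100a10 control region of a bacterial artificial chromosome drives a tagged ribosomal protein, so that ribosomes of S100a10-expressing cells can be pulled out with the RNA they carry (translating ribosome affinity purification, TRAP). Mice drank fluoxetine, a serotonin reuptake inhibitor, at 0.167 mg/ml with 1% saccharine, or 1% saccharine alone (vehicle), for 15 to 18 days, and each group has 3 arrays labelled as biological replicates. The sources used here do not say how many animals gave a sample, so p-values measure the spread between these samples, and the submitters state that the line also labels some non-neuronal cells.

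The driver gene S100a10 had log2 intensities of 15.09, 15.17 and 14.98 with fluoxetine and 15.07, 15.22 and 15.17 with vehicle. All 8 general neuronal markers and all 7 named layer 5 markers of the lists used passed the level filter described below. So did all 6 inhibitory neuron markers and all 8 astrocyte markers. The filter was also passed by 8 of 9 oligodendrocyte, 5 of 7 pericyte and smooth muscle, 4 of 6 endothelial and 5 of 8 microglial markers. Affymetrix intensities carry no read depth, and precision is limited by having 3 arrays per group. Fewer cells of a type and less RNA per cell cannot be told apart in such pooled RNA.

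For each gene the brightest probe set was used, and the gene was called measured where that probe set's geometric mean intensity reached 50 (5.64 in log2). By that level 53 of the 59 Rab genes were measured. The brightest probe sets of the measured genes averaged from 6.57 (Rab38) to 15.08 (Rab14) in log2 intensity over the 6 arrays. An intensity also depends on how well its probes bind, so these levels do not rank the genes. The 6 genes below the level were Rab5b, Rab20, Rab25, Rab37, Rab39 and Rab44, whose readings on single arrays ran from 2.84 to 5.74. Rab25 is known from epithelia, Rab44 from blood cells and Rab37 from secretory granules, whereas Rab5b is an early endosome Rab made in most cells, so a reading below the level is not a statement that the RNA was missing.

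The comparison asks whether prolonged fluoxetine altered the translated RNA of Rab genes in these cells. None of the 53 measured Rab genes passed limma's test (adjusted p under 0.05, Benjamini-Hochberg) over all 22326 tested probe sets, where 0 probe sets were called (0% of genes). The smallest adjusted p among them was 0.999. At an unadjusted limma p under 0.05 there was 1 Rab gene, Rab27a, which was lower with fluoxetine; 1.95% of all 12248 measured genes were lower and 0.71% higher at that level. Differences were below 0 for 40 of the 53 genes (75.5%), against 68.5% of all measured genes, and the median difference, fluoxetine minus vehicle in log2, was −0.06 for Rab genes and −0.06 for all measured genes. The share lower is thus close to the background, and it turned with the scaling: 24 of 53 were lower after quantile normalization and 26 after the arrays were set to one median.

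Over the 103 tested Rab probe sets instead of genes, 69 were lower (67%), against 66.3% of all tested probe sets. At an unadjusted limma p under 0.05, 2 were lower and 0 higher, against 1.78% and 0.739% of all tested probe sets. The groups did not overlap for 6 lower probe sets and 1 higher one, against backgrounds of 5.23% and 2.83%.

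By gene, every fluoxetine array lay below every vehicle array for 5 Rab genes (9.43%), against 5.99% of all measured genes. They did not overlap in the other direction for 1 Rab gene (1.89%), against 2.32%. The lower ones were Rab27a, Rab4b, Rab11b, Rab2a and Rab1a, and the higher one was Rab36. An exact two-sided permutation test over arrays gave p = 0.1 for each of the 6, the smallest that 3 arrays against 3 allow.

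Most Rab genes were measured tightly. The 95% interval of the difference (limma, not adjusted for the number of genes) lay inside −0.5 to 0.5 in log2, a fold of 0.707 to 1.41, for 37 of the 53 (69.8%), against 55.5% of all measured genes. The median standard error was 0.133 for Rab genes and 0.151 for all measured genes. The half-width of the intervals ran from 0.235 for Rab1a to 0.80 for Rab26. Excluding any single array left the sign of the difference unchanged for 27 of the 53 genes, 22 of them lower and 5 higher. Rab42 is among the higher ones at only 0.0001 without vehicle 3. The same count was not made over all measured genes, whose median was below 0, so no background share stands beside it.

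**Figure D1:**
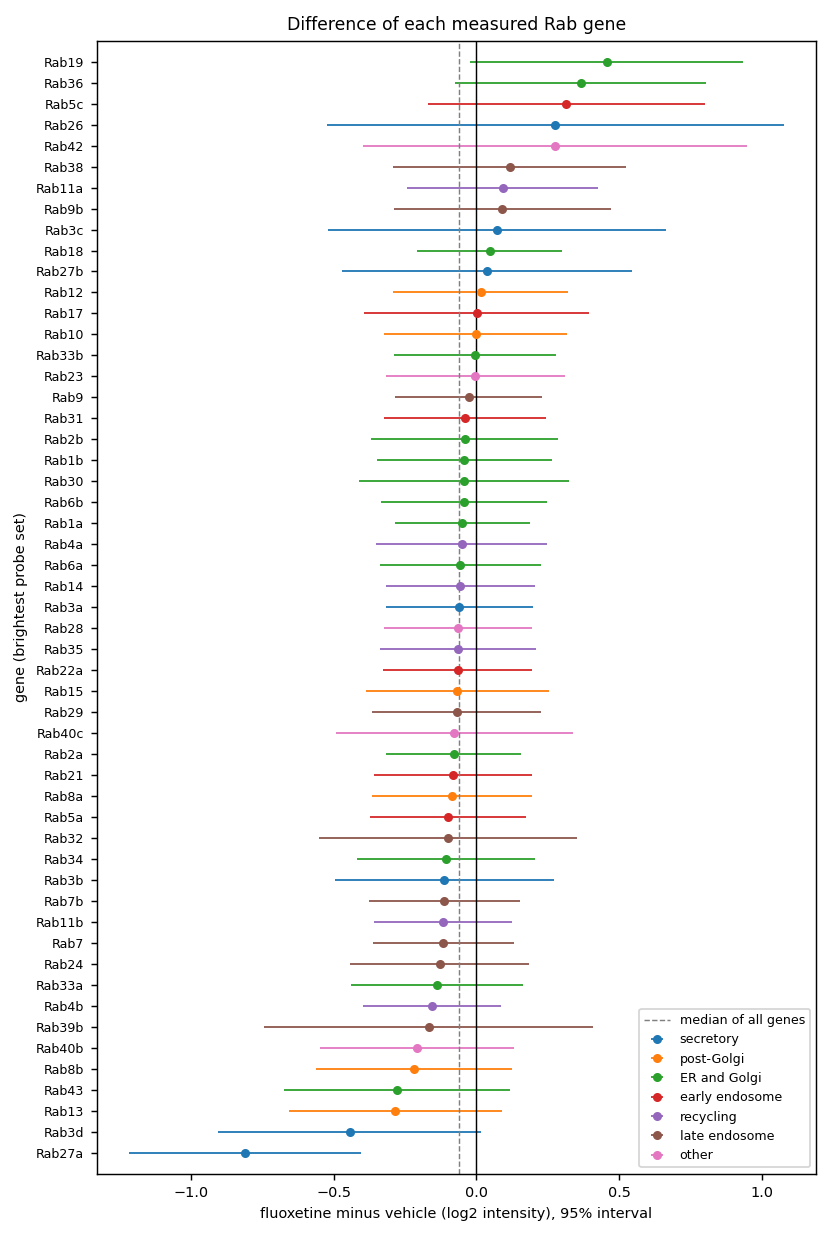
Difference between fluoxetine and vehicle (x axis, log2 intensity, brightest probe set) for each of the 53 measured Rab genes (y axis, ordered by size), with 95% limma intervals and colours for the role groups. The dashed line is the median of all measured genes. Only the interval of Rab27a, at −0.81, does not reach 0.

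**Figure D2:**
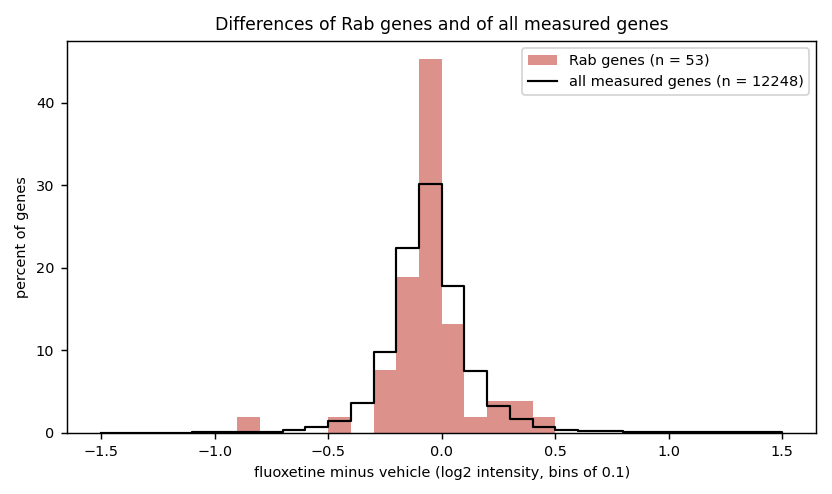
Percent of genes (y axis) by fluoxetine minus vehicle difference in bins of 0.1 log2 (x axis), for the 53 measured Rab genes (filled bars) and all 12248 measured genes (line). The axis ends at −1.5 and 1.5, beyond which a few of all genes lie. Both have their median at −0.06, and Rab27a at −0.81 stands apart on the left.

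Among the secretory Rabs, 4 of 7 measured genes were lower and 3 higher, with a median of −0.06. Rab27a had the lowest difference of the family. It read 7.90, 8.11 and 8.12 with fluoxetine, against 8.62, 9.19 and 8.75 with vehicle, in log2 intensity. All 3 fluoxetine readings lay below the lowest vehicle reading, and vehicle 2 was the highest. Rab27a thus averaged 8.04 ± 0.13 under fluoxetine and 8.86 ± 0.30 under vehicle (SD, n = 3 each), a difference of −0.81 ± 0.17 (SE) or a fold of 0.570. Its adjusted limma p was 0.999, so the difference did not pass over all probe sets. Without vehicle 2 the difference was −0.64, and its adjusted p ran from 0.742 to 1.00 over all settings tried. Rab27a was singled out with earlier results of these data known, so its place at the low end of the family is a description. Its 3 other probe sets averaged 3.56, 3.21 and 3.02, below the level at which a difference was tested, so a single probe set carries the value.

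In the same samples most marker lists were mostly lower, where 68.5% of all measured genes were lower. This held for 6 of 8 neuronal, 6 of 7 layer 5, 5 of 8 astrocyte, 4 of 6 inhibitory and 3 of 4 endothelial markers. The mean of the 8 astrocyte markers was nevertheless higher with fluoxetine, by 0.50 in log2 with overlapping groups. The 3 higher ones were Gfap (3.34), Aqp4 (0.66) and Aldoc (0.21). All 5 measured microglial markers were higher. Pericyte and smooth muscle markers were lower in 5 of 5 measured members. Their summed intensities were 6889 to 9205 with fluoxetine and 8568 to 13485 with vehicle. Oligodendrocyte markers were lower in 7 of 8. Their sums were 24486, 15792 and 23505 with fluoxetine and 22331 to 24307 with vehicle, so fluoxetine 2 alone lay below the vehicle range. Both sums overlapped between the groups, and no marker read 0, since these values have a floor above 0; Kcnj8, Abcc9 and Mog were below the level of 50. Their part in the Rab27a difference was not tested. Rab27b, the closest relative of Rab27a, read 10.61, 10.62 and 11.16 with fluoxetine and 10.79, 11.06 and 10.43 with vehicle. The groups overlapped, and the difference of 0.04 had a 95% interval of −0.47 to 0.54. Its further tested probe sets were lower, by −0.22 and −0.15, also with overlapping groups.

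The promoters of the secretory Rab genes with the lowest differences, Rab27a and Rab3d, are printed here so that the regulatory sequence stands beside the values. RefSeq (GRCm38.p6) lists 2 starts for Rab27a and 1 for Rab3d in the table used, each given as 250 bases before to 50 after the start, 5′ to 3′ on the gene's strand. Capitals mark matches, on either strand, to the GC box GGGCGG, the E-box CACGTG, the cAMP response element TGACGTCA and the TATA box TATAAA.
Rab27a upstream start, chr9:73044560-73044859, plus strand: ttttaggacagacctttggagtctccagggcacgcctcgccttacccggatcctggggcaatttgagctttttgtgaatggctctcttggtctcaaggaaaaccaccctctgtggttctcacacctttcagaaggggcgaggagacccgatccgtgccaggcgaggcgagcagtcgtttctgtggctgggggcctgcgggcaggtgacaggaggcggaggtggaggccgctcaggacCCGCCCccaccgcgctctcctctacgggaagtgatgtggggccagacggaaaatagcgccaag
Rab27a downstream start, chr9:73063898-73064197, plus strand: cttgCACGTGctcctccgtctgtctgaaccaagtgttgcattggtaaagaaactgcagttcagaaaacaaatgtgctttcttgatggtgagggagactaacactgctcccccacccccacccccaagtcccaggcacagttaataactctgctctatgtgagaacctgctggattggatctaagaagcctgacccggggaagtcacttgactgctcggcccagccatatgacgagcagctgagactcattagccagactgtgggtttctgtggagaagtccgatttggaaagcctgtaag
Rab3d, chr9:21918134-21918433, minus strand: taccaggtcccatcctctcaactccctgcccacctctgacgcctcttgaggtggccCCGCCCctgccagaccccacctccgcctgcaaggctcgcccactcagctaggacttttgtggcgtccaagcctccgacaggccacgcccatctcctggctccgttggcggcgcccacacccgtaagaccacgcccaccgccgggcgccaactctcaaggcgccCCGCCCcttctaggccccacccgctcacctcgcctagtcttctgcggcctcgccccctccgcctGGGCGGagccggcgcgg
The upstream Rab27a start has a GC box just before the start and the downstream start an E-box at its far end, while Rab3d has 3 GC boxes. Of 60 such windows for 48 of the 59 Rab genes, 68.3% held a GC box, against 46.2% of 21263 windows of protein-coding genes and 35.7% of all 32851. An E-box was in 10% of Rab windows, against 7.84% of those of protein-coding genes and 7.15% of all, and a TATA box in 6.67%, against 12.6% and 13.6%. The full cAMP response element was in 2 Rab windows (3.33%), against 2.23% and 1.79%, and those belonged to Rab5a and Rab25. The median GC content was 61.2% for Rab windows, 56.3% for protein-coding genes and 52.7% for all. The match of letters is a description of these windows and was not set against the fluoxetine differences.

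Rab3a, the main Rab of synaptic vesicles in brain, read 14.17, 14.08 and 14.28 with fluoxetine and 14.21, 14.21 and 14.28 with vehicle. The groups overlapped, and the difference of −0.06 ± 0.11 (SE) had a 95% interval of −0.32 to 0.20. That probe set carries a suffix for probes that may match other genes, and the other Rab3a probe set differed by −0.11. Rab3b, a relative with a role in plasticity at inhibitory synapses, read 9.24, 9.35 and 9.61 with fluoxetine and 9.36, 9.39 and 9.78 with vehicle. Its groups overlapped too (difference −0.11 ± 0.16).

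Rab3c, which shares synaptic vesicles with Rab3a, read 11.94, 11.75 and 12.42 with fluoxetine and 12.15, 12.25 and 11.49 with vehicle. Fluoxetine 3 was its highest reading and vehicle 3 its lowest, and the difference was 0.07 ± 0.25 (SE). Rab3d, best known from granules of exocrine and mast cells, read 8.15, 8.37 and 8.41 with fluoxetine and 8.34, 9.03 and 8.90 with vehicle. Vehicle 1 fell inside the fluoxetine range and the other vehicle arrays lay above it. The difference was −0.44 ± 0.20 (SE, limma adjusted p = 0.999), the second lowest of the family. The 2 further tested probe sets of Rab3d both differed by only −0.04, so the value rests on its brightest probe set.

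Rab26, a Rab of secretory granules and vesicle-directed autophagy, read 10.86, 9.45 and 9.81 with fluoxetine and 9.58, 9.77 and 9.93 with vehicle. Fluoxetine 1 stood 0.925 above the next array, the widest such gap among the 53 genes, and the difference was 0.28 with that array and −0.13 without it. Rab26 was chosen after its values were seen. On fluoxetine 1 the 8 astrocyte markers also averaged highest, at 12.43 in log2, beside 11.00 and 11.91 on the other fluoxetine arrays and 11.16 to 11.37 with vehicle, with 3 of the 8 (Gfap, Aqp4 and Aldoc) above all other arrays. Gfap, the astrocyte filament protein, carried most of that gap, with 12.13, 4.49 and 9.02 on the fluoxetine arrays and 4.70, 5.24 and 5.67 with vehicle. The other 7 markers averaged 12.48, 11.93 and 12.32 with fluoxetine and 12.09 to 12.19 with vehicle. Fluoxetine 1 was also the lowest array for 6 of 7 layer 5 markers and 4 of 5 measured pericyte and smooth muscle markers. Among all 12248 measured genes, this array was the highest for 3135 and the lowest for 2076. It was the highest for 12 of the 53 Rab genes. The part of all these markers in the Rab26 reading was not tested.

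**Figure D3:**
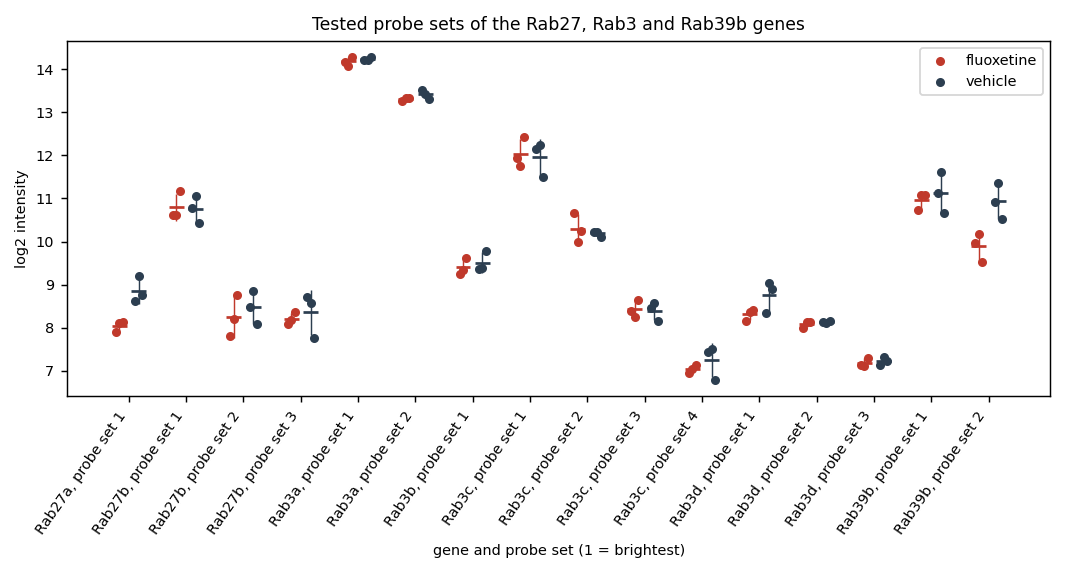
Log2 intensity (y axis) of the tested probe sets of Rab27a, Rab27b, the Rab3 genes and Rab39b (x axis, 1 being the brightest probe set of a gene), with fluoxetine to the left of vehicle. Points are arrays, horizontal bars group means and vertical lines 1 SD. The groups are apart for Rab27a and for the second probe set of Rab39b, and overlap for the brightest Rab39b probe set and for every Rab27b probe set shown.

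Rabs of the endoplasmic reticulum and Golgi, the early part of the secretory route, had 11 of 14 measured genes lower and 3 higher (median −0.04). Rab1a, which acts in transport to the Golgi, read 15.02, 14.97 and 15.01 with fluoxetine and 15.06, 15.02 and 15.05 with vehicle. Its groups were just apart, with a difference of means of −0.05 ± 0.10 (SE) that changed sign when the arrays were set to one median. Rab2a, which acts between the same compartments, read 14.46, 14.52 and 14.45 with fluoxetine and 14.58, 14.56 and 14.52 with vehicle (difference −0.08 ± 0.10). By their brightest probe sets both genes were thus nearly level, with 95% intervals of −0.28 to 0.19 and −0.32 to 0.16. The Rab2a probe set carries a suffix for probes that may match other genes. Further tested Rab2a probe sets differed by −0.07, −0.21, 0.13, 0.01 and 0.14, so they did not share a direction.

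Rab6b, the brain form of the Golgi Rab6, read 14.96, 14.77 and 15.11 with fluoxetine and 15.00, 14.96 and 15.01 with vehicle. The groups overlapped (difference −0.04 ± 0.12, SE). Its 3 further tested probe sets differed by −0.13, −0.50 and 0.44, so they did not share a direction. Rab6a (−0.06), Rab1b (−0.04), Rab2b (−0.04), Rab30 (−0.04), Rab33b (0.00), Rab18 (0.05), Rab34 (−0.11) and Rab33a (−0.14) lay close to 0, and Rab43 at −0.28 ± 0.17.

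Rab36 and Rab19, Golgi-associated Rabs of less studied function, had the highest differences of this group. Rab36 read 8.46, 7.91 and 7.82 with fluoxetine and 7.69, 7.59 and 7.81 with vehicle. The groups were just apart, with fluoxetine 1 well above the rest, and the difference was 0.37 ± 0.19 (SE), or 0.17 without fluoxetine 1. Its 2 other tested probe sets differed by 0.06 and 0.25, both with overlapping groups. Rab19, one of the dimmest measured members, read 7.69, 7.50 and 7.13 with fluoxetine and 7.29, 6.70 and 6.96 with vehicle. Vehicle 1 lay above fluoxetine 3, and the difference of 0.46 ± 0.20 (limma adjusted p = 0.999) was the highest of the family.

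Of the post-Golgi Rabs, which carry cargo to the cell surface, 5 of 6 were lower (median −0.08). Rab13, a Rab of cell junctions, differed by −0.28 ± 0.16 (SE) and Rab8b, which acts in transport to the plasma membrane, by −0.22 ± 0.15. Rab8a (−0.09), Rab15 (−0.07), Rab10 (0.00) and Rab12 (0.01) lay within their standard errors of 0. None of these 6 had groups that did not overlap.

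Early endosome Rabs, which act just after uptake from the cell surface, had 4 of 6 genes lower, with a median of −0.05 and a mean of 0.01. Rab5a, the main regulator of fusion of early endosomes, differed by −0.10 ± 0.12 (SE). Rab5c read 8.57, 8.64 and 8.43 with fluoxetine and 7.77, 8.48 and 8.44 with vehicle; vehicle 1 alone was low, and the difference of 0.32 was 0.083 without it. Rab17, a Rab known from epithelia, read 6.99, 6.89 and 6.74 with fluoxetine and 6.86, 6.59 and 7.16 with vehicle. It differed by 0.00 ± 0.17, with overlapping groups. Rab21 (−0.08), Rab22a (−0.07) and Rab31 (−0.04) lay within their standard errors of 0.

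Recycling Rabs return endocytosed receptors to the surface, and 5 of 6 measured genes were lower (median −0.06). Rab4b read 11.60, 11.56 and 11.54 with fluoxetine and 11.65, 11.75 and 11.77 with vehicle. Every fluoxetine array was below every vehicle array, and the difference of means was −0.16 ± 0.10 (SE, limma adjusted p = 0.999). Its relative Rab4a differed by −0.05 ± 0.13, with overlapping groups. That Rab4a probe set carries a suffix for probes that may match other genes. The other tested Rab4a probe set differed by −0.29 ± 0.15, also with overlapping groups.

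Rab11b, which marks the recycling endosome and is abundant in brain, read 13.02, 13.11 and 13.03 with fluoxetine and 13.20, 13.12 and 13.19 with vehicle. The groups were just apart (difference −0.12 ± 0.10, SE), while 2 further probe sets of Rab11b differed by 0.06 and 0.00. Rab11a, its close relative, was higher by 0.09 ± 0.14. Rab14, with the brightest probe set of the family, read 15.12, 14.93 and 15.11 with fluoxetine and 15.15, 15.11 and 15.07 with vehicle, and its groups overlapped (difference −0.06 ± 0.11). Rab35, a Rab of fast recycling, differed by −0.06 ± 0.12.

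Late endosome, lysosome and related Rabs had 7 of 9 measured genes lower (median −0.10). Rab7, which governs transport to the lysosome, differed by −0.12 ± 0.10 (SE), and Rab24 (−0.13), Rab7b (−0.11), Rab32 (−0.10), Rab29 (−0.07), Rab9 (−0.03) and Rab9b (0.09) lay within their standard errors of 0. Rab38, a melanosome Rab and the dimmest measured member, read 6.61, 6.62 and 6.64 with fluoxetine and 6.16, 6.56 and 6.81 with vehicle. Its fluoxetine readings sat inside the wider vehicle range (difference 0.12 ± 0.17). That probe set carries a suffix for probes that may match other genes, and the other Rab38 probe set averaged 4.52, below the level.

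Rab39b, a neuronal Rab whose human counterpart is mutated in intellectual disability with parkinsonism, was the one gene with a tested probe set whose difference lay over 0.5 in log2 from that of the brightest. The probe sets of Rab6b, given above, spanned a wider range, from −0.50 to 0.44. The brightest Rab39b probe set read 10.73, 11.08 and 11.08 with fluoxetine and 11.13, 11.61 and 10.65 with vehicle. The groups overlapped and the difference was −0.17 ± 0.25 (SE), or 0.07 without vehicle 2. Its second probe set read 9.97, 10.18 and 9.52 with fluoxetine and 10.93, 11.36 and 10.52 with vehicle. There every fluoxetine array lay below every vehicle array. The difference of means was −1.04 ± 0.25 (limma adjusted p = 0.999), a fold of 0.485. Excluding single arrays gave −1.25 to −0.83. The gene is represented by the brightest probe set, and the second one did not match it.

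The remaining measured Rabs, of mixed function, had 4 of 5 genes lower (median −0.06). Rab40b (−0.21 ± 0.14, SE) and Rab40c (−0.08 ± 0.18) belong to ubiquitin ligase complexes, Rab23 (0.00 ± 0.13) restrains Hedgehog signalling and Rab28 (−0.06 ± 0.11) acts at cilia. Rab42 was higher by 0.27 ± 0.29 but near 0 without vehicle 3. Of the members that are not GTPases, Rab3il1 differed by 0.09 ± 0.19 and Rab10os by −0.07 ± 0.13, and Rab26os was below the level. A second Rab10os probe set was higher by 0.22 with groups that did not overlap.

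Across the 28 Rab genes with several tested probe sets, all probe sets were lower for 12 genes and all were higher for 1. For 15 genes they did not share a sign. Averaged over the 53 genes, the fluoxetine arrays read 11.23, 11.15 and 11.18 and the vehicle arrays 11.17, 11.32 and 11.22. Vehicle 2 was highest and fluoxetine 2 lowest, and the groups overlapped. The same arrays stood at the ends for all 12248 measured genes averaged together, with 9.70 on fluoxetine 2 and 9.87 on vehicle 2.

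**Figure D4:**
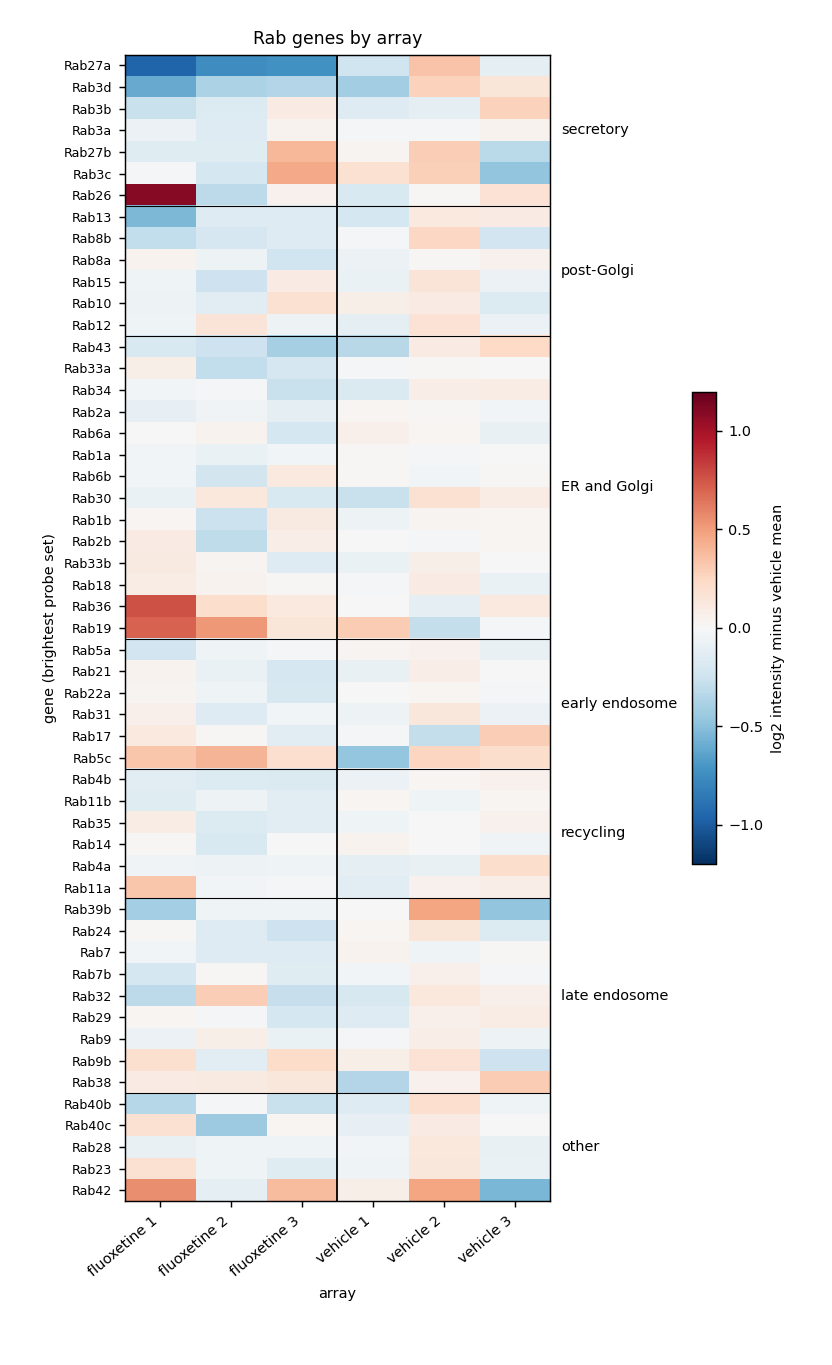
Log2 intensity minus the vehicle mean (colour) for the 53 measured Rab genes (rows, grouped by role) on each array (columns, fluoxetine on the left). Rab27a is low on all 3 fluoxetine arrays, Rab26 and Rab36 are high on fluoxetine 1, and every role group holds genes of both directions.

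The proteins that run the Rab cycle were followed with lists chosen by role. Of 105 measured genes, 73 were lower (69.5%, against 68.5% of all measured genes) and 32 higher (median −0.09). That median was −0.03 without fluoxetine 2 and −0.04 without vehicle 2, and the median of all measured genes was −0.03 in both cases. None passed limma's test. With an unadjusted limma p under 0.05, 2 were lower and 2 higher, against 1.95% and 0.71% of all measured genes. Groups did not overlap for 9 lower genes (8.57%) and 6 higher ones (5.71%), against 5.99% and 2.32% of all measured genes. The prenylation, escort and GDI proteins, which attach the lipid anchor of a Rab and move it between membranes, were lower in 5 of 7 cases (median −0.01). The smallest p there belonged to Rabif, a chaperone of nucleotide-free Rabs, at 0.08 ± 0.11 (SE), followed by the Rab escort genes Chm (−0.18 ± 0.38) and Chml (−0.18 ± 0.49).

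Exchange factors were lower in 25 of 31 cases (median −0.10). Dennd3, an exchange factor for Rab12, read 7.02, 6.93 and 6.63 with fluoxetine and 7.57, 7.36 and 7.61 with vehicle. The groups did not overlap, and the difference of means was −0.65 ± 0.15 (SE, limma adjusted p = 0.999). Dennd6b, of the same family, read 9.23, 9.39 and 9.65 with fluoxetine and 8.91, 8.63 and 9.10 with vehicle. It was higher by 0.54 ± 0.17 (limma adjusted p = 0.999), and its probe set carries a suffix for probes that may match other genes. Denn2b differed by −0.38 ± 0.17. GTPase-activating proteins, mostly of the TBC family, were lower in 19 of 33 cases (median −0.01). Outside that family, the list also holds Rab3gap1 (−0.30 ± 0.27) and Rab3gap2 (0.05 ± 0.21). Tbc1d20, which acts on Rab1, differed by −0.23 ± 0.11, Tbc1d10a, which can act on Rab27a, by 0.32 ± 0.16, and Tbc1d23, a Golgi protein, by −0.28 ± 0.14. The groups of Tbc1d20 and Tbc1d10a did not overlap, and those of Tbc1d23 did.

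Effectors of Rab3 and Rab27 were lower in 10 of 12 cases, with a median of −0.21. Rph3al, which binds both Rab3 and Rab27, read 7.69, 7.24 and 7.48 with fluoxetine and 7.03, 7.18 and 7.17 with vehicle. It was higher by 0.34 ± 0.14 (SE, limma adjusted p = 0.999), with groups that did not overlap. Sytl2, a Rab27 effector that docks granules, differed by −0.28 ± 0.14, and Rims2, the active zone scaffold that binds Rab3, by −0.35 ± 0.18, both with overlapping groups. The effectors of other Rabs were lower in 14 of 22 cases (median −0.10). Ehbp1l1, a Rab8 effector, read 8.52, 8.14 and 8.48 with fluoxetine and 8.95, 9.00 and 9.06 with vehicle. Its groups did not overlap, with a difference of −0.62 ± 0.14 (limma adjusted p = 0.999), and its second tested probe set differed by −0.41. Rilpl1, a Rab effector at the cilium base, differed by −0.24 ± 0.10 and Fyco1, which links Rab7 vesicles to motors, by 0.32 ± 0.15, both with groups that did not overlap. The Rilpl1 probe set carries a suffix for probes that may match other genes.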

How the data were processed

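RNA of 15 ng per sample from TRAP immunoprecipitates was amplified in 2 cycles and hybridized to single-colour Affymetrix arrays, per the labels' protocols. The authors deposited linear intensity values (1.74 to 99076). The submitters' processing notes name GCRMA, of unstated version, as their normalization. GCRMA squeezes low values towards a floor. Medians over tested probe sets still ran from 8.99 (fluoxetine 2) to 9.20 (vehicle 2) in log2. Control probe sets (64) were left out; 34945 probe sets had 1 symbol, 932 several and 9160 none. Values were taken to log2 without offset. Fluoxetine minus vehicle was tested in limma 3.58.1 under R 4.3.3 (lmFit, eBayes, two-sided) on 22326 probe sets with a geometric mean of at least 50, adjusting by Benjamini-Hochberg over all of them at 0.05. This procedure was tested on simulated data. Named genes were all Rab3 and Rab27 genes, the 3 brightest and 3 dimmest measured, up to 6 per direction with non-overlapping groups, those with a tested probe set differing from the brightest by over 0.5, and up to 3 per Rab cycle list; Rab26, Rab5c and Rab10os were named after their values were seen, as were the members given only by their difference. Members and lists were chosen with earlier results of these data known. Rab genes were sorted into role groups by function, 1 group per gene. RefSeq tables gave promoters. Alternatives changed the filter, offset, scaling, model, probe set rule and arrays included, as given in the closing section.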

Additional observations from a re-analysis of the deposited data

How the results depend on the processing

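No probe set was called by limma under any setting tried, and the smallest adjusted p was 0.742, without the filter. Of 301 values of named Rab probe sets under these settings, 278 kept their direction and 23 did not. Quantile normalization left 24 of 53 Rab genes lower (median 0.0042) and the shift to a common median 26, because both move all genes: the median of all measured genes was −0.0023 and −0.0022. Excluding single arrays gave 33 to 42 lower, 33 without fluoxetine 2 or vehicle 2. Signs turned for Rab3a (0.0042 and 0.00012), Rab14 (0.0039), Rab1a (0.012) and Rab6b (0.017) under the 2 scalings, the last 3 only with the shift. They turned with array weights for Rab6b (0.0049) and Rab17 (−0.020), with an offset of 16 for Rab17 (−0.00078), with averaged probe sets for Rab27b (−0.11) and without probe sets open to cross-matching for Rab14 (0.031); the cause was not tested. Excluding single arrays gave −0.14 to 0.15 for Rab17, −0.091 to 0.0059 for Rab14, −0.13 to 0.043 for Rab6b, −0.16 to 0.22 for Rab3c, −0.14 to 0.19 for Rab27b, −0.060 to 0.27 for Rab38, −0.41 to 0.071 for Rab39b and −0.22 to 0.024 for Rab3b. Rab27a stayed between −0.93 and −0.64 under all settings. The replicate number as a block called 0 probe sets and left 40 Rab genes lower. Same-numbered arrays correlated at −0.25, −0.03 and −0.50 in their deviations from group means, so the numbers were not taken as pairs. Across numbers, fluoxetine 1 correlated with vehicle 3 at 0.43, and fluoxetine 3 with vehicle 1 and 2 at 0.25 and 0.35. The 6 measured nuclear RNAs averaged 7.19 on fluoxetine 1 and 7.29 on vehicle 3, beside 7.79 to 8.03 on the other arrays. Their part in the Rab differences was not tested. Low intensities near the GCRMA floor limit what can be seen for the 6 Rab genes left out.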
